A study of Rattus norvegicus with 35 samples.

Results

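The olfactory receptor (OR) genes described here were those whose probes lie on rat chromosome 3 at a start coordinate below 72 Mb. They were chosen by name and position, as probes with a gene name beginning with Olr or a description holding the words olfactory receptor. No measured value entered this rule, but it was set with earlier results of these data known. They numbered 158 of the 1136 OR probes among the 41012 probes of the array, and 153 of them carried an Olr name. The other 5, LOC690132, LOC684658, XM_230074, XM_230113 and XM_230155, were kept for their descriptions. RNA of the olfactory epithelium of 27 Brown Norway rats was hybridized to 35 one-color Agilent arrays. The newborn group held 19 pups aged 3 to 5 days, 4 of them from litter L1 and 5 each from L2, L3 and L4, with tissue from 1 side of the nose of each and the sex not given. The adult group held 4 males aged 9 weeks and the old group 4 males aged 22 months, and each of these rats gave 2 arrays, one for each nostril. Age group and sex could therefore not be told apart where newborn rats were compared with the others, and the 2 arrays of a rat were averaged so that the rat was the replicate.

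ORs are G protein-coupled receptors through which the sensory neurons of the olfactory epithelium bind odorants. OR genes are numerous in rodents and sit in clusters on many chromosomes, and a mature neuron settles on the product of a single OR gene. A receptor's signal runs through the G protein subunit encoded by Gnal and the adenylyl cyclase encoded by Adcy3 to the cyclic nucleotide-gated channel, so that in a whole epithelium the mRNA of an OR gene sums over the few neurons that chose it. In such tissue, fewer cells of a type and less RNA per cell cannot be told apart.

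The OR probes lay in 2 blocks that were 51.7 Mb apart. The first, of 33 probes from Olr395 to Olr434, spanned 1373 kb (chr3:15369932-16743223, build rn3) with a median of 30.1 kb between neighbors, and 25 of its probes were on the plus strand. The second, of 125 probes ending at Olr619, spanned 3512 kb (chr3:68474576-71986212) with a median of 21.4 kb between neighbors, and 50 of its probes were on the plus strand. No gap between neighbors within a block was longer than 175 kb.

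Each OR gene had 1 probe of 60 bases, and the sequences of 10 probes are printed, those of the genes whose values by rat are described at most length as higher or lower in newborn rats. The first 7 belong to genes called higher in newborn rats and expressed in at least 1 group. They lie at chr3:68779028-68779087, chr3:69309785-69309844, chr3:69500009-69500068, chr3:69662768-69662827, chr3:69825718-69825777, chr3:70926418-70926477 and chr3:71329550-71329609, the first 4 on the minus strand and the last 3 on the plus strand. Capitals mark the longest stretch shared with another OR probe of the array.
Olr448: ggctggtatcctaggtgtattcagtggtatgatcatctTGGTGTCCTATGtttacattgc
Olr486: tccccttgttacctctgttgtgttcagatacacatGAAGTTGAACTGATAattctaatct
Olr500: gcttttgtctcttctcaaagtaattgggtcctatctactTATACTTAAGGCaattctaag
XM_230113: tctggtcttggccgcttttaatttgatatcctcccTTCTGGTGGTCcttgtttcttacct
Olr517: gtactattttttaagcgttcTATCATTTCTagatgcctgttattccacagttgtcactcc
Olr560: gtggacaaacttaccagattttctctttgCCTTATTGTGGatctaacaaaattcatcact
Olr581: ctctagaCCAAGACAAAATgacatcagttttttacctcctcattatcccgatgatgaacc
The other 3 belong to the genes with the largest log2 falls in newborn against adult rats, Olr425 (chr3:16507615-16507674, minus strand), Olr529 (chr3:70203795-70203854, minus strand) and Olr566 (chr3:71035031-71035090, plus strand).
Olr425: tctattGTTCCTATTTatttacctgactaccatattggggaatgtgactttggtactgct
Olr529: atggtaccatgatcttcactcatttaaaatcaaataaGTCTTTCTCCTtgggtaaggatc
Olr566: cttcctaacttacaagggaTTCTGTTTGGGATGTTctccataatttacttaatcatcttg
The best match of an OR probe of these blocks to any other OR probe ran from 48.3% to 85.0% of the bases, with a median of 65.0%. It reached 80% for 11 probes and 90% for 0. For the 12 probes called higher in newborn rats it ran from 50% to 78.3%, and their longest shared stretch from 10 to 15 bases. The probe of Olr566, in contrast, matched that of Olr531 at 83.3% of the bases, so that cross-hybridization between these genes cannot be told apart from their own signals. The place of each probe within its gene was not analysed here.

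The array medians of the background-subtracted intensity were 42.1 to 87.7 in newborn, 81.6 to 162 in adult and 37.1 to 55.3 in old rats, and 24484 to 28361, 25273 to 28020 and 25275 to 27426 probes were above background. Adult rats were scanned alone on the first 2 of 5 days, L1 and old rats shared the third, and L2, L3 and L4 the last 2. Scan day and age could therefore not be told apart except between L1 and old rats. No slide held arrays of different age groups, so slide and age could not be told apart in any comparison. Markers of the olfactory epithelium were present at all ages, since Omp, Gnal, Adcy3, Cnga2 and Stoml3, genes of mature sensory neurons, were above background on all 35 arrays. Of 12 genes measured from a list for mature olfactory sensory neurons, 10 were lower in newborn than in adult rats (median log2 difference −2.25) and 11 lower than in old rats (median −2.46), and their summed level relative to the array median was 263 to 547 in newborn, 1400 to 1880 in adult and 2070 to 2850 in old rats. The single exception in both comparisons was Slc17a6, a vesicular glutamate transporter (−0.37 and −0.65), joined against adult rats by Rtp2, which was above background on 3 newborn, 0 adult and 6 old arrays. The part of this difference in the OR results was not tested.

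An OR gene was counted as expressed in a litter when at least 3 of the arrays showed its probe above background, and in the adult or the old group when at least 6 of 8 did, as weakly expressed when it was above background on fewer, and as not expressed on 0. By this count 66, 57, 78 and 64 of the 158 genes were expressed in L1, L2, L3 and L4, against 78 in adult and 92 in old rats. The genes not expressed numbered 66, 83, 67 and 73 in the litters, 42 in adult and 44 in old rats. The count for L3 thus equalled that of adult rats, and all 4 litters were below old rats. The rule was not equal between groups, at 3 of 4 arrays in L1, 3 of 5 in the other litters and 6 of 8 in adult or old rats. The order of litters and adult rats depended on the rule. With signals that were positive and significant alone 115, 106, 120 and 116 genes were expressed in L1 to L4, 114 in adult and 122 in old rats. On every array of the group 53, 41, 55 and 57 were, against 48 in adult and 74 in old rats. Under either rule 3 of the 4 litters lay above adult rats and all 4 below old rats. Every array means 4 or 5 arrays in a litter but 8 in adult rats, among them nostril B of rat 16 with 51 genes above background. The order can therefore not be read as more OR genes in pups than in adult rats.

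**Figure D1:**
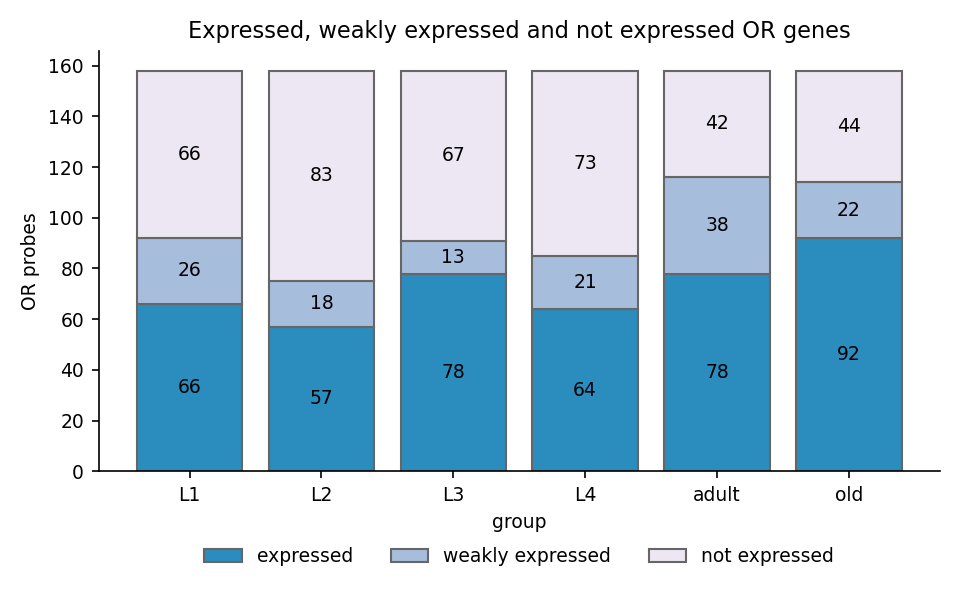
Number of the 158 OR probes (vertical axis) expressed, weakly expressed and not expressed in each group (horizontal axis). The expressed part is 57 to 78 in the 4 litters, 78 in adult and 92 in old rats, and the not expressed part is larger in every litter, at 66 to 83, than in adult or old rats.

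Counted array by array, the number of OR genes above background was 68.2 ± 7.58 in newborn rats (SD, n = 4 litter means). It was 86.8 ± 4.84 in the 4 adult rats and 95.5 ± 4.26 in the 4 old ones (SD). The litter means were 73.0, 57.8, 74.6 and 67.6, the highest of them below the lowest adult rat at 80, whereas adult rats reached 91.5 and old rats began at 89.5. The litter means were thus apart from both other groups, although single pups reached 87, and adult and old rats overlapped. The lowest adult array, nostril B of rat 16, had 51 genes above background while nostril A of the same rat had 109, the highest count of all arrays. Over the 632 pairs of a gene and a rat, 118 were above background on 1 of the 2 arrays in adult rats, with 11 to 58 in each rat, and 62 in old rats, with 9 to 20 in each rat.

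**Figure D2:**
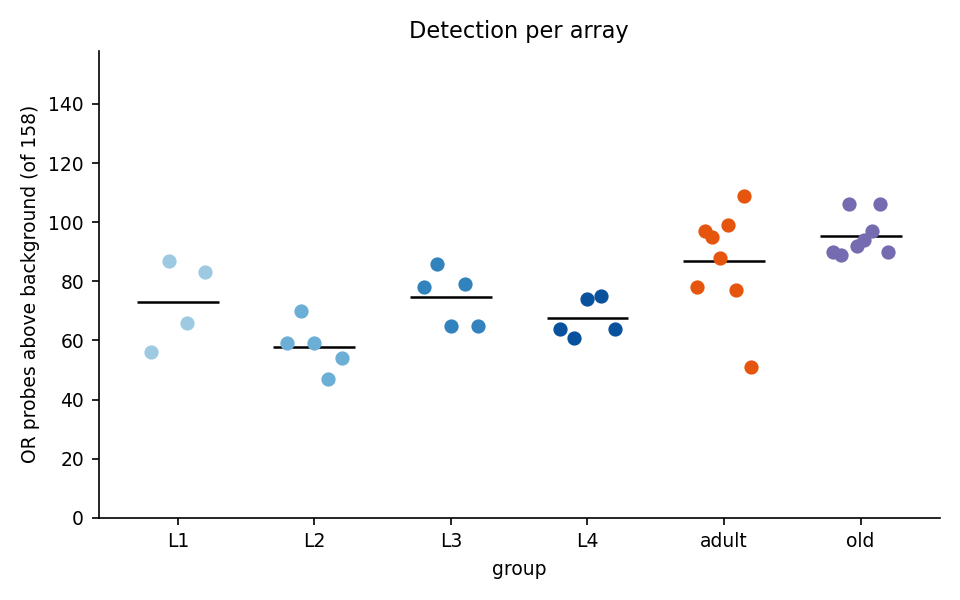
Number of the 158 OR probes above background on each array (vertical axis) by group (horizontal axis), 1 point for each array, with a line at the group mean. Newborn arrays range from 47 to 87, adult arrays from 51 to 109 and old arrays from 89 to 106, and the array at 51 is nostril B of adult rat 16.

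A core of OR genes was detected at every age. Expression in all 6 groups was seen for 48 genes, 25 of which were above background on all 35 arrays, whereas 60 genes were expressed in no group and 27 were above background on no array. Within the newborn rats, 52 genes were expressed in all 4 litters, 9 in 3, 9 in 2, 12 in 1 and 76 in none. In the first block 11 to 15 of 33 genes were expressed in a litter, 17 in adult and 18 in old rats, and in the second block 46 to 63 of 125 genes in a litter, 61 in adult and 74 in old rats.

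Few genes were detected in pups without being expressed later. Olr448 and Olr500 were expressed in all 4 litters but neither in adult nor in old rats, and Olr560 and Olr604 in at least 1 litter but neither in adult nor in old rats. In the opposite direction, 9 genes were expressed in adult and old rats but in no litter: Olr425, Olr443, Olr453, Olr464, Olr496, Olr515, Olr529, Olr558 and Olr566. Above background on newborn arrays alone were 6 genes, of which Olr500 was above background on 18 of 19 arrays, Olr415 and Olr473 on 4 each and Olr399, Olr537 and Olr563 on 1 or 2, while 31 genes were above background on adult or old arrays alone. Between adult and old rats, 16 genes were expressed in old but not in adult rats, and 2, Olr424 and Olr458, in adult but not in old rats.

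Levels are given as the log2 of the intensity over the array median, so that 0 is the median of the array and −6.64 the floor of 0.01. One limma fit held all 6 groups, with the newborn level taken as the average of the 4 litters. A gene was called at a Benjamini-Hochberg adjusted p under 0.01, over all 41012 probes, together with a difference of at least 2-fold. Against adult rats, 12 of the 158 OR genes (7.59%) were called higher in newborn rats, where 11.8% of all probes were, and 44 (27.8%) lower, where 9.31% of all probes were (0 and 5 genes after normexp background correction and quantile normalization). Against old rats, 6 OR genes (3.8%) were higher in newborn rats, where 9.47% of all probes were, and 75 (47.5%) lower, where 9.27% were (0 and 16 genes after that processing). The same newborn values enter both comparisons. The median difference of the OR genes was −0.43 against adult and −1.10 against old rats, beside 0.10 and −0.04 for all probes. Normexp was run with an offset of 50, within the range of the array medians. After it the medians were −0.07 and −0.20 for the OR genes and 0.00 and −0.01 for all probes. The share of all probes called after normexp is not given, so the loss of calls cannot be read as particular to the OR genes. Among the 98 OR genes expressed in at least 1 group, 7 were higher and 37 lower against adult rats in the main fit. Against old rats 3 of them were higher and 63 lower. The filter admits genes through 1 age group alone, such as the 16 expressed in adult or old rats and in no litter. It therefore partly sets these counts, and the share of all probes called under it is not given. The newborn rats did not overlap with the adult rats for 37 OR genes and with the old rats for 57, where 26.7% and 22.3% of all probes had no overlap.

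Olr500 had the clearest newborn level. Its values ran from −2.04 through a median of −0.68 to 0.12 in the 19 pups, were −4.06, −3.81, −3.48 and −4.99 in the adult rats and −4.85, −2.96, −3.46 and −4.24 in the old rats. Every pup was above every older rat, and no adult or old array was above background. The difference was 3.31 ± 0.32 (log2 ± SE, adjusted p = 5.2e-09) against adult and 3.1 ± 0.32 (adjusted p = 2.09e-08) against old rats, which, with the older groups not well above background on any array, is given as at least 3.0-fold and at least 2.61-fold higher in newborn rats. A bound of this kind sets the mean of the brighter group against the lowest signal well above background on each array of the dimmer group, or the probe's own signal where that is higher. The litters had means of −1.31, −0.71, −0.44 and −0.65, and Olr500 was expressed in each.

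Olr448 was above background on all 19 newborn arrays, 4 of 8 adult and 4 of 8 old arrays. Its values ran from −1.32 through −0.33 to 0.34 in pups, were −2.11, −1.95, −3.80 and −3.53 in adult and −2.19, −1.26, −1.42 and −1.35 in old rats. The pups did not overlap with the adult rats but the lowest pup lay below the highest old rat. The difference was 2.45 ± 0.29 (5.46-fold, adjusted p = 1.69e-07) against adult and 1.16 ± 0.29 (2.23-fold, adjusted p = 0.00193) against old rats. Both calls were lost with the methods' t-test and after normexp. The call against old rats was also lost with the rat as a random block, with litter means and without old rat 17. It was lost as well with L1 alone as newborn rats, the litter scanned on the same day as the old rats. The adult level lay below the old one by −1.29 ± 0.38 (adjusted p = 0.00774), a call lost under 8 of 10 other settings, the rat as a block among them, and without adult rat 15 or 16 or old rat 18, 19 or 20.

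Olr560 was dim at all ages. Its values ran from −3.34 through −2.27 to −1.17 in pups, were −5.08, −5.81, −5.75 and −5.43 in adult and −5.77, −3.60, −6.64 and −6.64 in old rats, and it was above background on 5 newborn, 0 adult and 1 old array. Every pup was above every older rat. The difference was 3.21 ± 0.39 (adjusted p = 1.81e-07) against adult rats, at least 1.04-fold, and 3.36 ± 0.39 (adjusted p = 1.24e-07) against old rats. With 5 of 8 old values at the floor, the size of the second difference rests on the floor: it was 0.81 with a floor of 0.1, 0.87 with the 75th percentile and 0.00 with the floor at the lowest signal well above background, and not called under any of these 3.

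A further 4 genes, detected at every age, were higher in newborn rats against adult rats. Olr486 ran from 0.49 through 1.41 to 2.22 in pups and was 0.57, −0.11, 0.12 and −0.45 in adult and 1.25, 2.20, 1.69 and 1.02 in old rats, so that adult rats were low and pups and old rats overlapped. Its difference was 1.39 ± 0.26 (2.62-fold, adjusted p = 8.58e-05) against adult rats, −0.12 against old rats, and adult rats were lower than old rats (−1.51, adjusted p = 0.000893). Only the adult level of Olr486 was called different from the others in these tests, although the lowest pup, at 0.49, lay below the highest adult rat at 0.57. Adult rats were scanned alone, so that age and scan day cannot be told apart here.

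XM_230113, a gene described as similar to an olfactory receptor, ran from 0.08 through 0.83 to 1.47 in pups and was −0.25, −0.47, −0.23 and −0.66 in adult and 0.80, 0.84, −0.47 and −0.17 in old rats. No pup was as low as an adult rat, and the difference was 1.30 ± 0.22 (2.46-fold, adjusted p = 1.8e-05). Against old rats, which overlapped with the pups, it was 0.64 (adjusted p = 0.0151) and not called.

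Olr581 ran from −0.79 through 0.76 to 1.47 in pups and was −0.31, −1.41, −0.65 and −0.90 in adult and −1.13, 0.65, 0.10 and −0.62 in old rats. The lowest pups, both of litter L1, overlapped with the adult rats, and the difference was 1.53 ± 0.27 (2.88-fold, adjusted p = 4.33e-05). Against old rats it was 0.96 (adjusted p = 0.00501), under 2-fold. Olr517 ran from −1.74 through −0.76 to −0.13 in pups and was −1.82, −2.05, −1.52 and −2.56 in adult and −2.09, −1.09, −1.17 and −0.96 in old rats, overlapping with both. Its difference was 1.08 ± 0.23 (2.12-fold, adjusted p = 0.0003) against adult rats, a call lost without adult rat 16, and 0.42 (adjusted p = 0.132) against old rats.

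**Figure D3:**
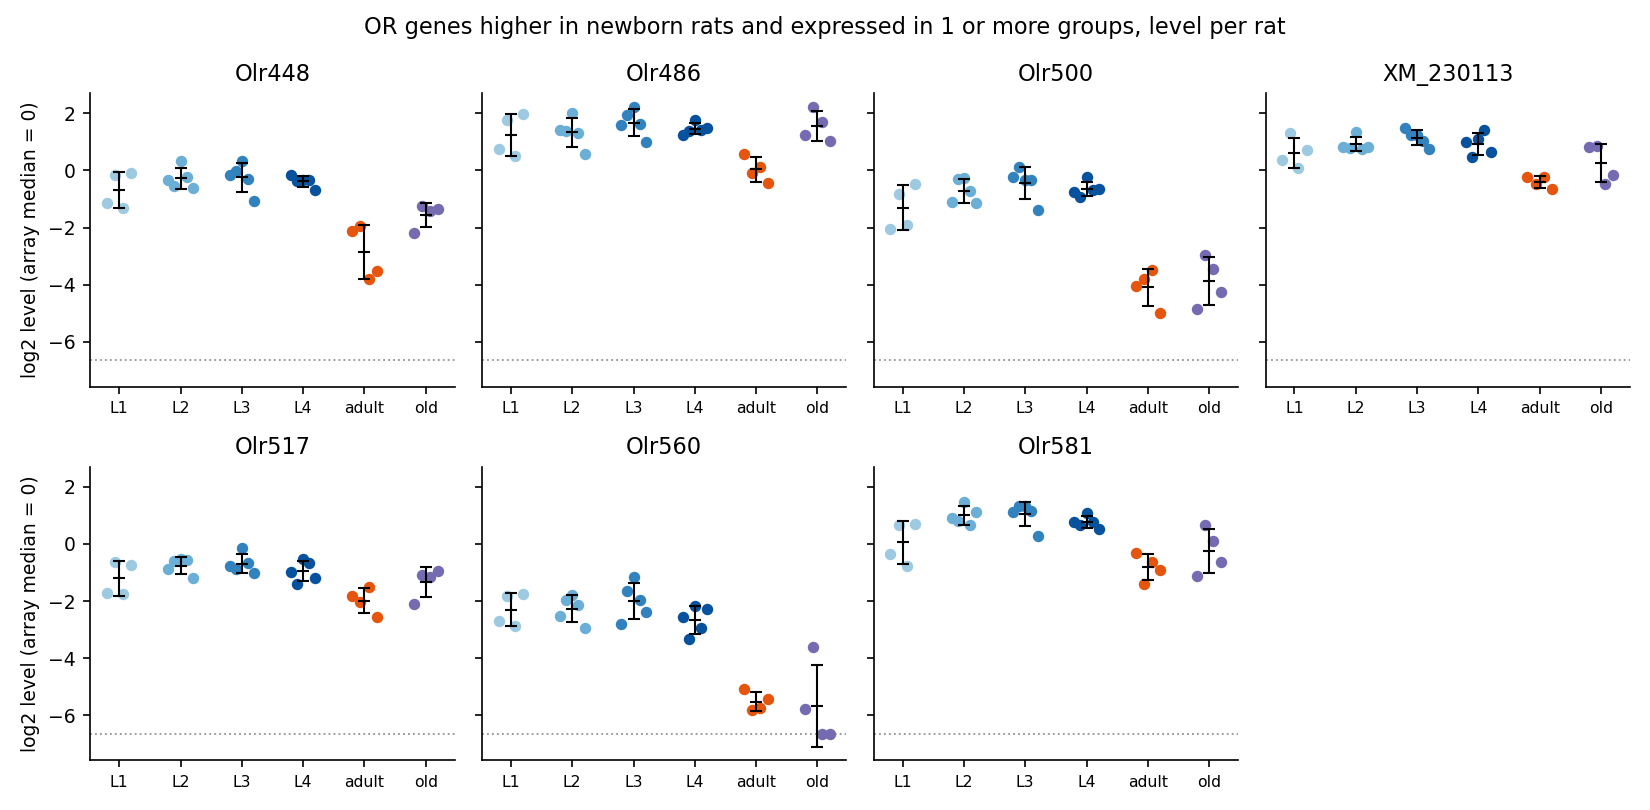
Level of 7 OR genes in each rat (vertical axis, log2 of the intensity over the array median) by litter and age group (horizontal axis), 1 point for each rat, with the mean and SD of the group as bars and the floor of −6.64 as a dotted line. For Olr500 every newborn rat, at −2.04 or above, lies above every adult and old rat. For Olr486 the old rats lie among the newborn rats, and for Olr517 all of them do except old rat 17, at −2.09.

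The other 5 genes called higher in newborn than in adult rats, Olr415, Olr473, Olr479, Olr559 and Olr583, were expressed in no group. Olr415 and Olr473 were above background on 4 newborn arrays each, with differences of 3.23 and 3.80 against adult and 3.93 and 3.06 against old rats. For Olr473 the difference against adult rats was at least 1.05-fold, and for Olr415 no fold can be given. Olr479, Olr559 and Olr583 were above background on 0 newborn and 0 adult arrays, so their differences of 1.89, 1.84 and 2.18 lie below background on both sides and carry no fold. The call of Olr479 was lost without any one of the adult rats.

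Along the chromosome, 1 of the 12 genes called higher in newborn than in adult rats, Olr415, lay in the first block, 915.8 kb from its first probe, and the other 11 in the second. In that block Olr448 lay at 304.5 kb, and Olr473, Olr479, Olr486, Olr500, XM_230113 and Olr517 followed between 640.8 and 1351.1 kb. After a stretch of 1078.3 kb with 28 other OR genes came Olr559 and Olr560 at 2429.4 and 2451.8 kb, and Olr581 and Olr583 at 2855.0 and 2893.5 kb. These 12 genes had 24 places beside them, and 4 of these were taken by another of the 12, 7 by genes lower in newborn than in adult rats and 13 by genes not called. The pairs Olr559 and Olr560, 22.4 kb apart, and Olr581 and Olr583, 38.5 kb apart, were the only neighbors among them, and 1 gene of each pair was expressed in no group.

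Some of the 12 genes lay beside genes that were lower or not called. Olr500 lay 18.5 kb from Olr499, which was lower in newborn than in adult rats (−1.68) and above background on 18 of 19 newborn arrays, and 19.3 kb from Olr502 (difference −0.72, not called). Olr448 lay 28.0 kb from Olr447, above background on 0 newborn, 3 adult and 6 old arrays, and 9.4 kb from Olr450 (difference 0.34, not called), which was above background on all 35 arrays. Olr517 lay 68.8 kb from Olr519, among the OR genes with the largest fall in newborn rats.

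**Figure D4:**
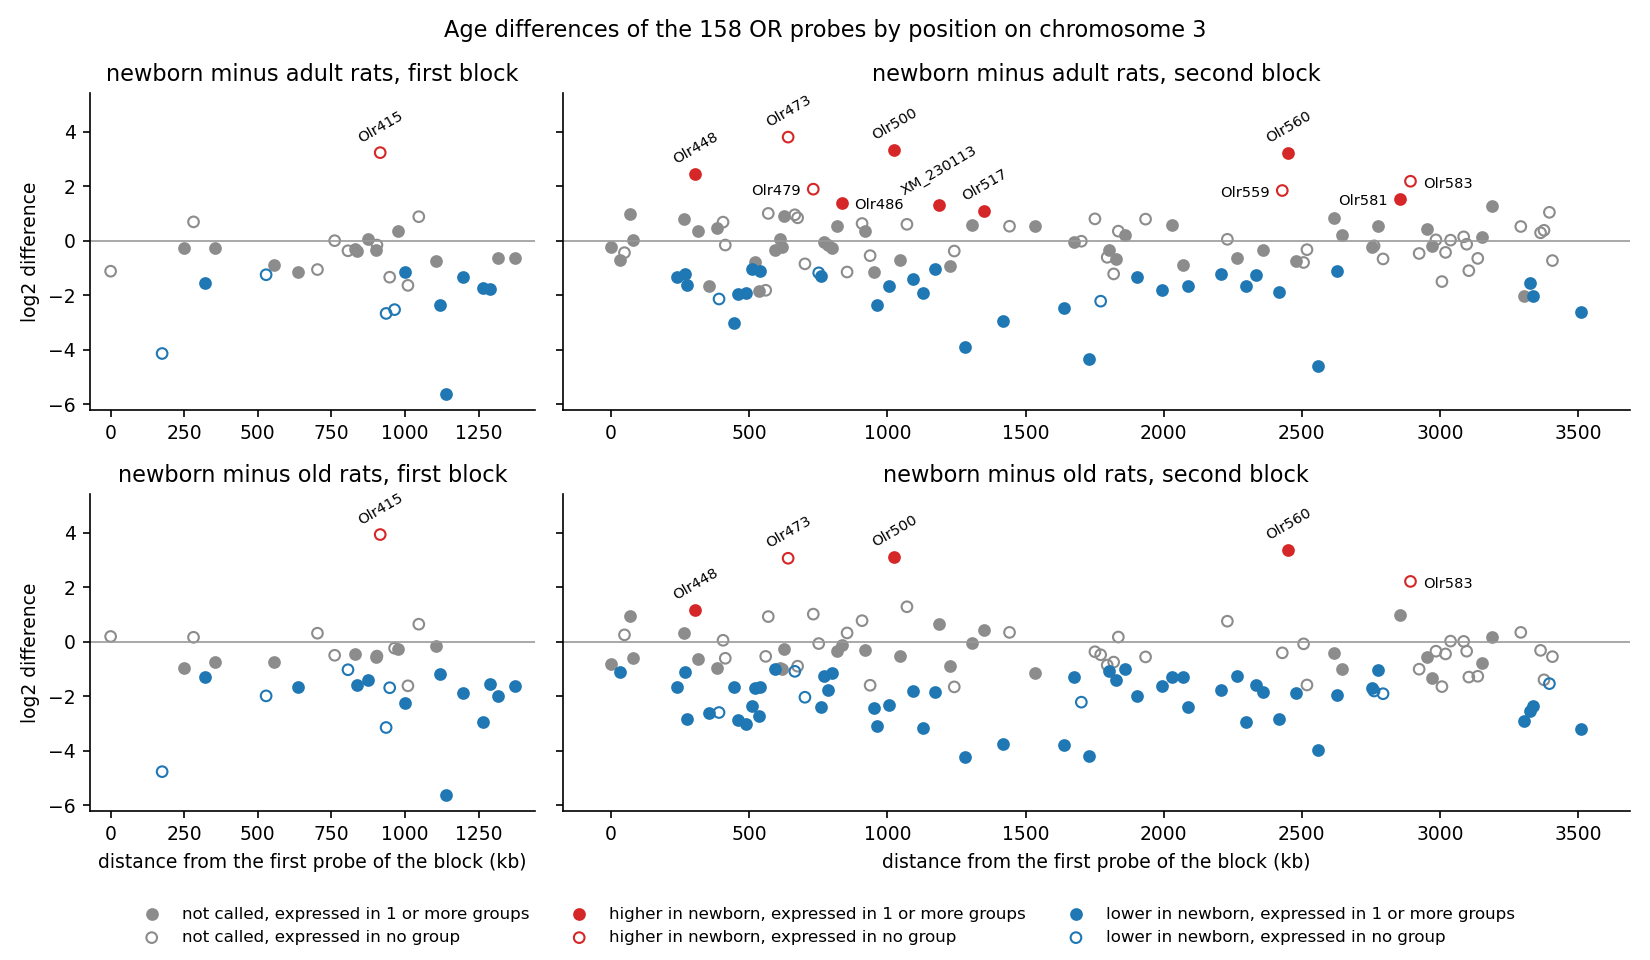
Difference between newborn and adult rats (top) and newborn and old rats (bottom) in log2 units (vertical axis) for each of the 158 OR probes by distance in kb from the first probe of its block (horizontal axis). Red points are called higher in newborn rats and blue points lower, and open points are expressed in no group. The red points of the second block lie among blue and gray ones, with none between Olr517 at 1351.1 kb and Olr559 at 2429.4 kb.

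The longest run of neighbors lower in newborn than in adult rats held 5 genes, Olr424, Olr425, Olr427, Olr428 and Olr429, near the end of the first block, and in the comparison with old rats LOC690132 and Olr434 extended it to 7. In windows of 500 kb, the share of genes expressed in all 4 litters was lowest between 3000 and 3500 kb of the second block, where 1 of 17 genes was expressed in all litters, 3 in adult and 4 in old rats. Between 500 and 1000 kb of the same block 11 of 28 genes were expressed in all litters, 13 in adult and 17 in old rats, and this window held 3 of the newborn-higher genes beside 5 that were lower than in adult rats.

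The genes with the largest falls in newborn rats were close to undetected in pups. Olr425 was above background on 1 of 19 newborn arrays and on all 16 adult and old arrays. Its values ran from −6.64 through −6.64 to −1.40 in pups and were −0.69, −0.46, −0.28 and 0.09 in adult and −0.58, −0.46, −0.56 and 0.34 in old rats, so that all older rats were above all pups. With 10 of 19 newborn values at the floor, the difference was −5.62 ± 0.60 (adjusted p = 3.17e-08) against adult and −5.64 ± 0.60 (adjusted p = 4.09e-08) against old rats.

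Olr529 was above background on 0 newborn and on all 16 older arrays. Its values ran from −6.64 through −4.05 to −2.64 in pups and were −0.40, −0.03, 0.31 and −0.18 in adult and −0.60, −0.52, −0.01 and 0.30 in old rats. Adult and old rats overlapped and no pup reached them. The difference was −4.34 ± 0.57 (adjusted p = 6.02e-07) against adult rats, at least 4.74-fold lower in newborn rats, and −4.21 ± 0.57 (adjusted p = 1.25e-06) against old rats, at least 4.31-fold lower.

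Olr566 was above background on 3 newborn and all 16 older arrays. Its values ran from −6.64 through −5.13 to −2.10 in 18 pups, 1 value of L1 having been left out for a spot that was not uniform, and were −0.04, −0.45, −0.34 and −0.52 in adult and −0.93, −0.87, −1.18 and −0.81 in old rats. No pup reached an older rat. The difference was −4.59 ± 0.76 (adjusted p = 2.01e-05) against adult and −3.98 ± 0.76 (adjusted p = 0.00013) against old rats. Olr531, whose probe is the closest to that of Olr566, was above background on no array.

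Olr515, at least 2.60-fold lower than in adult and at least 3.31-fold lower than in old rats, and Olr458, at least 3.27-fold lower than in adult and 1.28-fold lower than in old rats, were above background on 0 newborn and 8 adult arrays. Leaving out old rat 18, 19 or 20, or taking L1 alone as newborn rats, ended the call of Olr458 against old rats. The genes differed in old rats, with 8 arrays above background for Olr515 and 4 for Olr458. Olr396, Olr416 and Olr519 were above background on 0 newborn arrays and on 2 to 5 adult arrays, and their differences of −4.14, −2.67 and −2.93 rest on values near background at both ages.

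**Figure D5:**
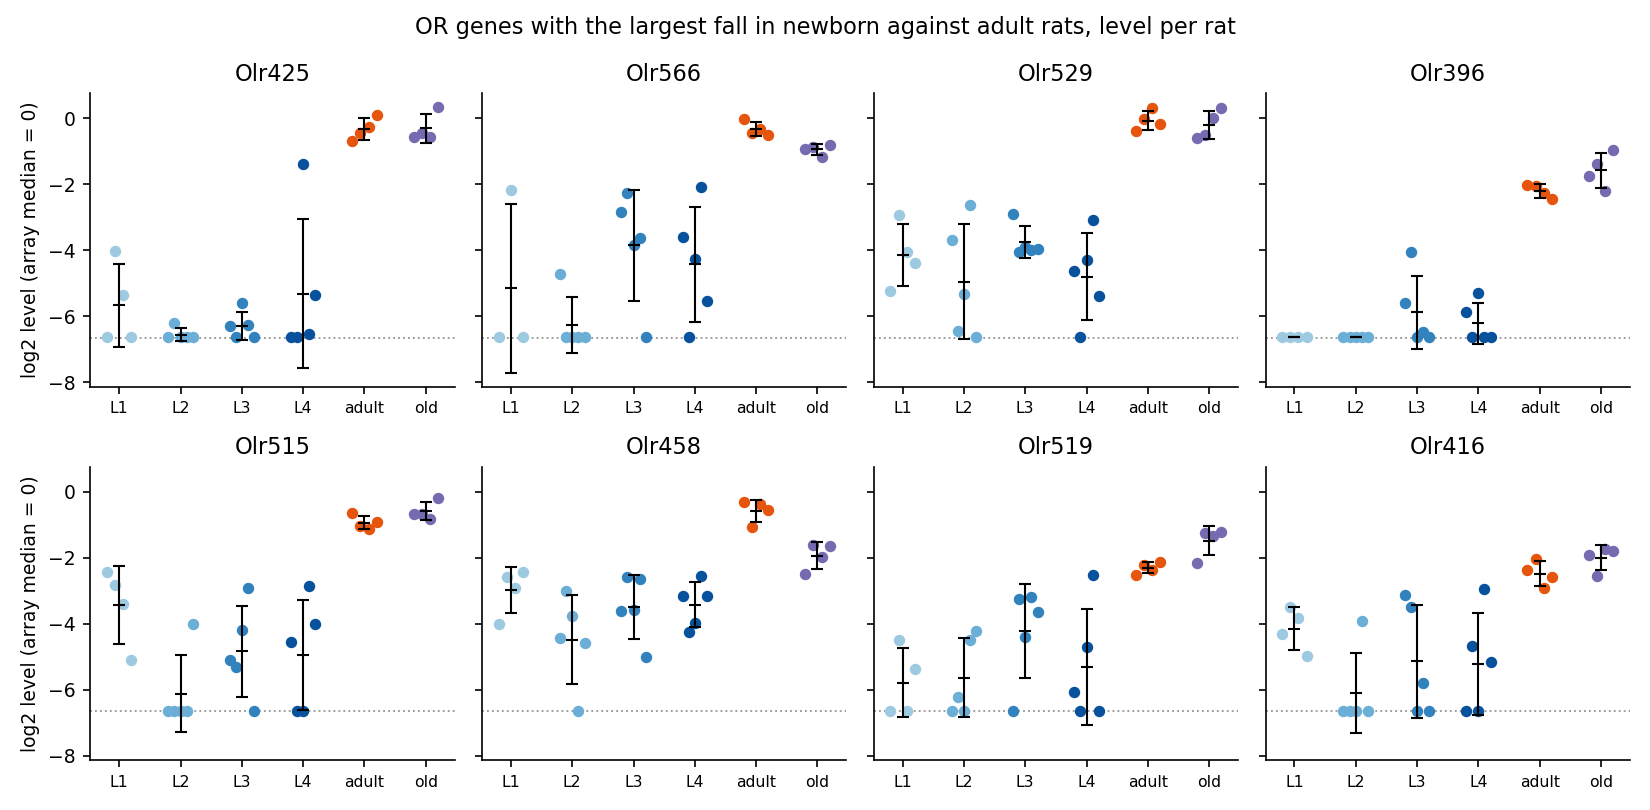
Level of the 8 OR genes with the largest called fall in newborn against adult rats, for each rat (vertical axis, log2 of the intensity over the array median) by litter and age group (horizontal axis), with the mean and SD of the group as bars and the floor of −6.64 as a dotted line. For Olr425, Olr529, Olr566 and Olr515 all adult and old rats lie above all pups, and 10, 2, 8 and 7 of the newborn values of these genes lie at the floor.

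Most of the OR genes that fell had a signal well above background on at least 1 newborn array. A single array was enough, as for Olr425 at 1 of 19, so these are not counts of genes expressed in the litters. Of the 44 genes lower in newborn than in adult rats, 29 were well above background in both groups on at least 1 array, 9 had a bound only, 5 had a bound under 1 and Olr531 was below background in both. Against old rats the corresponding numbers were 54, 14, 1 and 6 of 75. Olr554 was among the brightest, above background on all 35 arrays: it ran from 0.60 through 1.73 to 2.47 in pups and was 2.81, 3.37, 3.33 and 3.15 in adult and 4.32, 4.35, 4.34 and 4.82 in old rats. The 3 groups did not overlap, and pups were lower than adult rats (−1.65 ± 0.24, 3.14-fold, adjusted p = 3.64e-06) and lower than old rats (−2.94 ± 0.24, 7.70-fold, adjusted p = 6.72e-10).

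Between adult and old rats, 2 OR genes (1.27%) were higher in adult rats, where 5.57% of all probes were, and 28 (17.7%) lower, where 7.06% were (0 and 4 genes after normexp and quantile normalization). The median difference was −0.63 for the OR genes and −0.13 for all probes, and with quantile normalization −0.56 and 0.00. The groups did not overlap for 54 of the 158 genes, where 43.6% of all probes had no overlap. Olr554 was lower in adult than in old rats (−1.29, 2.45-fold, adjusted p = 0.00178). Olr428, at 0.68, 0.66, 0.66 and 0.26 in adult and 1.87, 1.71, 1.62 and 1.90 in old rats, was lower in adult rats (−1.21, 2.31-fold, adjusted p = 8.21e-05), and Olr461, at −0.32, −0.20, −0.01 and −0.39 in adult and 0.71, 0.83, 0.79 and 1.25 in old rats, was also lower (−1.12, adjusted p = 0.0054). For both genes the groups did not overlap, but the call of Olr461 was lost without any one of adult rats 13, 14 and 16 and old rats 18, 19 and 20, after normexp and with the slide as a block.

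Olr544, chosen after its values were seen, had the largest called difference among probes above background on every adult and old array, at −0.20 to 0.39 in adult and 1.46 to 2.28 in old rats without overlap (−1.85 ± 0.27, 3.60-fold, adjusted p = 6.96e-06). The 4 larger called differences, those of Olr613, Olr418, Olr559 and Olr475, were in dim probes. Olr475, above background on 0 adult and 3 old arrays, was lower in adult rats (−2.04 ± 0.31, at least 1.41-fold, adjusted p = 1.21e-05). Olr559 and Olr613, lower in adult rats (−2.25 and −2.58), and Olr418 and Olr531, with differences of 2.28 and 1.73 to the side of adult rats, have no fold, since they were above background on at most 1 array of either group. The calls of Olr418 and Olr531 were lost under 7 and 8 of 10 other settings, and that of Olr531 without adult rat 13 or 15 or old rat 17, 18 or 19. Leaving out the array of nostril B of adult rat 16 changed the count of genes lower in adult than in old rats from 28 to 19, and without adult rat 16 or old rat 18 the count was 17 or 16.

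Among the genes that the study names for its age comparison or for its PCR panel, the directions differed. Those were chosen on these samples or measured in the same rats, so they are no independent evidence. Of those described above, Olr448 and Olr500, which the study lists as expressed in newborn rats only, were called higher against adult and old rats. The study also measured both by PCR at these ages. It reported large SDs and a tendency to higher levels in pups, marked for both genes. Olr581, which it lists as upregulated against adult rats in L2, L3 and L4 and against old rats in L2 and L3, was called higher against adult rats alone. Averaged over the litters, its difference against old rats was 0.96, under 2-fold. Olr529 and Olr554 were lower in newborn than in adult and old rats. Olr428 and Olr461 were lower in newborn than in adult rats (−1.72 and −1.91) and than in old rats (−2.94 and −3.03). Olr434 and Olr484 were lower than in old rats (−1.62 and −1.15), the second not without old rat 18, with the rat as a block or with litter means, and their differences of −0.64 and −0.27 against adult rats were not called. Olr413 (−0.34 and −0.56) and Olr485 (0.53 and −0.36) were called in neither comparison. Olr441 ran from −1.62 through −0.34 to 0.55 in pups, was −0.79, −1.56, −1.34 and −1.57 in adult rats and −1.92, −0.63, −1.29 and −1.25 in old rats. Averaged over the litters, its differences of 0.97 (adjusted p = 0.00274) and 0.93 (adjusted p = 0.00424) were under 2-fold. The study lists it as upregulated in L2 and L3 only. The means of L1 to L4 were −0.82, −0.27, 0.03 and −0.33, beside −1.31 in adult and −1.27 in old rats. L2 and L3 were not tested singly here.

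Between litters, 6 of the 158 OR genes differed by the F test of L2, L3 and L4 against L1 (adjusted p under 0.01), where 22.6% of all probes did. Olr402, Olr576 and Olr613 were above background on no newborn array. Olr463 was above background on 18 newborn arrays with litter means of −0.58, −1.70, −0.40 and −0.85 for L1 to L4, Olr561 on 19 with −0.57, 0.61, 0.43 and 0.22, and Olr555 on 13 with −2.41, −1.75, −0.80 and −1.31. With L2, L3 and L4 only, which were scanned on other days than L1, 1 gene differed, and leaving out 1 pup gave 3 (without L1 rat 9 or L2 rat 25) to 10 genes (without L1 rat 10 or L2 rat 24). Against old rats, L1 alone, scanned on the same day but on another slide, gave 5 genes higher and 63 lower in newborn rats. Without L1 the other litters gave 8 and 72. The shares of all probes called in these fits are not given.

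The remaining OR probes of the array were used only to place these values, and no test was made of the difference between sets. Of the 129 OR probes on chromosome 3 at or above 72 Mb, 69.0% were lower in newborn than in adult rats (median difference −2.04) and 77.5% lower than in old rats (median −2.31), beside 27.8% and 47.5% in the blocks described. Of the 849 on other chromosomes, 34.6% and 56.7% were lower (medians −0.68 and −1.47). Higher in newborn than in adult rats were 1 of the 129 and 44 of the 849. At the boundary, Olr619, the last probe below 72 Mb, was lower in newborn rats (−2.63 against adult and −3.19 against old rats), and so was Olr621, the first above it (−3.35 and −2.81).

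Markers of other cells moved with age as well. Of 6 genes of immature neurons, Dcx and Gng8 were higher in pups than in adult rats and 4 higher than in old rats, with a summed level of 1540 to 3080 in newborn, 972 to 1390 in adult and 887 to 1150 in old rats. Of 5 genes measured for basal cells, which divide to renew the epithelium, 3 were higher than in adult rats and 4 than in old rats (sums 76.5 to 134, 24.6 to 30.6 and 14.5 to 18.2). Of the 4 genes measured for the choice of a receptor, Lhx2, Ldb1 and Ebf1 were not called in either comparison and Ebf2 was lower than in adult rats (−1.32) (sums 170 to 533, 299 to 392 and 339 to 430). Both sustentacular genes measured, Cyp1a2 and Cyp2g1, were lower in newborn rats (sums 82.7 to 299, 596 to 813 and 1120 to 1420). Both muscle genes, Acta1 and Myh3, were higher (sums 10.5 to 304, 0.313 to 0.563 and 0.376 to 0.653). Of the respiratory genes Foxj1 and Scgb1a1, 0 were called against adult rats and 1 was lower than in old rats (sums 320 to 797, 310 to 415 and 540 to 593). Hbb, for red cells, was 1.66 higher than in adult rats and differed by 0.32 from old rats, not called (64.7 to 255, 28.6 to 65.2 and 77.1 to 173), Cd68 of the macrophage genes Cd68 and Lyz was higher in both comparisons (sums 83.6 to 223, 37.9 to 81.5 and 80.9 to 245), and Ibsp, for bone, was 3.84 higher than in old rats and −0.24 against adult rats, not called (190 to 441, 227 to 570 and 14.4 to 24.9). The part of these cells in the OR results was not tested.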

How the data were processed

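The arrays were Agilent 44K whole rat genome arrays with 1 dye. The authors deposited, for each array, the intensity of every spot after subtraction of the local background and correction of spatial trends, not normalized between arrays, with quality flags. A GeneSpring matrix of ratio values, scaled by array medians and by 1 constant for each probe, was deposited as well and used as an alternative. All of its 41012 lines matched a probe. Adult arrays had been read with the earlier of 2 software releases.

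Control, population-outlier and non-uniform spots were left out (890 missing values on 494 probes) and spots of a probe averaged. Intensities were divided by the array median, floored at 0.01 and log2-transformed. A probe was above background where at least 0.5 of its spots were uniform, unsaturated, significantly positive and well above background by the flags. limma 3.58.1 (lmFit and eBayes, R 4.3.3), tested on simulated data, was fitted to 1 value for each of 27 rats, whose number limits the precision. Blocks were split at gaps over 1 Mb. Coordinates are those of the files (rn3).

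The rule for the OR genes, which uses names and positions, and the marker lists were set with earlier results of these data known. Named genes are all called higher in newborn rats, the 8 with the largest called fall against adult rats, the 3 called with the largest change in each direction between adult and old rats (2 in the direction of adult rats) and those the study names for ageing or PCR. Others were named after their values were seen. Alternatives covered normalization, background correction (normexp, offset 50), the floor, filters, thresholds, replicates and litters by scan day. They also covered the slide (correlation 0.1891) or rat (0.4587) as a random block, the methods' t-test and each rat left out in turn. That t-test was a Welch test over all probes with the pups of all litters pooled. The study's own t-test compared each litter with adult and old rats, among genes expressed at all ages.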

Additional observations from a re-analysis of the deposited data

Results flagged for a closer look

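Levels of the named OR genes were searched within each group for a rat far from the others (the gap to the nearest rat above the critical value of Dixon's test). Of 189 groups of levels tried, 22 had such a rat. For 7 of these all other rats of the group were at the floor of −6.64, so that any value above it stands apart by construction, and the rate of about 5% of groups that chance gives does not apply to them or to the total. Among the newborn-higher genes these were Olr448 in old rat 17 (−2.19, others −1.42 to −1.26), Olr479 in L4 rat 31 (−4.84, others −3.50 to −3.25), XM_230113 in L2 rat 23 (1.34, others 0.76 to 0.83), Olr581 in L3 rat 30 (0.29, others 1.12 to 1.33) and Olr583 in L2 rat 24 (−6.64, others −4.35 to −3.60).

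Among the genes with large falls, Olr425 stood apart in L4 rat 33 (−1.40, others −6.64 to −5.35), the pup with the only newborn signal above background, in L2 rat 22 (−6.21, others at −6.64) and in old rat 20 (0.34, others −0.58 to −0.46). Others were Olr416 in L2 rat 24 (−3.91), Olr515 in L2 rat 25 (−4.02) and Olr566 in L2 rat 21 (−4.73), each beside 4 pups at −6.64, Olr519 in old rat 17 (−2.15, others −1.34 to −1.23) and Olr529 in L3 rat 26 (−2.90, others −4.05 to −3.89).

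In the remaining named genes the values were Olr413 in L3 rat 30 (−2.55, others −1.34 to −1.12), Olr418 in L4 rat 34 (−5.82) and old rat 18 (−5.00) with the others at −6.64, Olr428 in adult rat 16 (0.26, others 0.66 to 0.68), Olr475 in L4 rat 34 (−2.03, others −3.23 to −2.98) and old rat 20 (−2.02, others −1.83 to −1.80), Olr531 in L2 rat 24 (−3.73, others at −6.64), and Olr554 in L2 rat 21 (1.23, others 1.73 to 1.87) and old rat 20 (4.82, others 4.32 to 4.35).

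The OR genes that differed among the litters had adjusted p values of 0.000608 (Olr402), 0.00259 (Olr463), 0.00269 (Olr555), 0.00586 (Olr561), 0.000703 (Olr576) and 0.00833 (Olr613) in limma's F test. L1 was scanned on another day than L2, L3 and L4, so that litter and scan day cannot be told apart for L1. All L1 arrays and most arrays of each other litter lay on a slide of that litter alone, so litter and slide can largely not be told apart either.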

How the results depend on the processing

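The main counts of OR genes were 12 higher and 44 lower in newborn than in adult rats, 6 and 75 against old rats, and 2 higher and 28 lower in adult than in old rats. After normexp and quantile normalization they were 0 and 5, 0 and 16, and 0 and 4. There the log2 difference of Olr500 was 0.50 against adult (adjusted p = 3.42e-07) and 0.48 against old rats (adjusted p = 8.39e-07), under 2-fold, and that of Olr448 was 0.54 and 0.35. Over genes expressed in all 6 groups the counts were 3 and 15, 0 and 28, and 0 and 17, and over genes expressed in at least 1 group 7, 3 and 0 were higher. At 5-fold or more they were 5 and 13, 4 and 28, and 0 and 1. Higher counts became 7 and 3 with the 75th percentile, 5 and 2 with the floor at the lowest signal well above background, and 2 against old rats with a floor of 0.1. The methods' t-test, run as a Welch test with all pups pooled, gave 3 higher against old rats and 0 higher and 17 lower between adult and old rats. Genes higher in adult than in old rats numbered 0 in the authors' matrix, 5 with every array as a sample, 1 with the rat or the slide as a block and 6 at an adjusted p under 0.05. With the floor at the lowest signal well above background Olr583 reversed against old rats (−0.15), and Olr531 in adult against old (−0.20) and newborn against adult rats (0.05). Olr500 lost its calls only after normexp. Against adult rats, Olr415, Olr479, Olr559 and Olr583 lost the call with the 75th percentile and with a floor of 0.1, Olr517 with the 75th percentile, the floor at the lowest signal well above background and the methods' t-test, and Olr473 and Olr560 with the floor at the lowest signal well above background. Olr448 lost its call against adult rats with the methods' t-test, and against old rats with that test, the rat block and the litter means. The cause of these changes was not tested. The shares of all probes called under these settings are not given, so the changes cannot be read as particular to the OR genes. The filters by expression drew on the same arrays and partly set the split of higher and lower genes.

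Leaving out 1 rat gave 10 to 16 genes higher and 37 to 48 lower against adult rats, 5 to 8 and 62 to 77 against old rats, and, between adult and old rats, 1 to 4 higher and 16 to 33 lower. The higher count was 1 without adult rat 15 or old rat 17, 18 or 19 and 4 without L2 rat 24, and the lower count was 17 without adult rat 16 and 16 without old rat 18. Litter differences numbered 1 among L2, L3 and L4 only, and 3 to 10 with 1 pup left out (3 without L1 rat 9 or L2 rat 25, 10 without L1 rat 10 or L2 rat 24). Without array B of adult rat 16, chosen after seeing the data, 12 were higher and 55 lower against adult rats. With signals that were positive and significant alone, 115, 106, 120 and 116 genes were expressed in L1 to L4, 114 in adult and 122 in old rats. On every array of the group 53, 41, 55, 57, 48 and 74 were, so that L1, L3 and L4 lay above adult rats under either rule. Both rules ask for fewer arrays in a litter than in adult rats. No paired analysis was possible because rat numbers are not shared between groups. Signal over background limits the result for 60 genes expressed in no group.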
